A study of Homo sapiens with 12 samples.

Results

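The DNA replication machinery of S phase was followed here as 45 genes, taken by symbol from the 26485 genes listed in each deposited table, and all 45 were found in both tables. They fall into 11 roles: the origin recognition complex (ORC1 to ORC6), the licensing factors CDC6 and CDT1, the MCM2-7 helicase, its activators (MCM10, CDC45 and GINS1 to GINS4), polymerase alpha with primase (POLA1, POLA2, PRIM1, PRIM2), polymerases delta and epsilon (POLD1, POLD2, POLD3, POLE, POLE2), the sliding clamp and its loader (PCNA, RFC1 to RFC5), the single-strand binding protein RPA (RPA1 to RPA3), the flap nuclease and ligase (FEN1, LIG1), nucleotide supply (RRM1, RRM2, TYMS) and fork protection (CLSPN, TIMELESS). PolyA RNA came from HEK293T, a line derived from human embryonic kidney that makes simian virus large T antigen. The cells had been transfected by polyethylenimine with PX330-GFP plasmids, which encode a single guide RNA (sgRNA) together with or without the Cas9 nuclease. The 4 groups of 3 libraries were 6T sgRNA with Cas9, 6T sgRNA without Cas9, luciferase sgRNA with Cas9 and luciferase sgRNA without Cas9. Every group therefore received plasmid and an sgRNA, and an untransfected group was not analysed here. The share of cells that took up plasmid is not given in the labels.

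Each deposited table compares the libraries of 1 sgRNA under the names A and B. Which name stands for Cas9 is not stated, and it could differ between the sgRNAs, so differences are given as B relative to A. A comparison of the sgRNAs within condition A or B may therefore also be a comparison of cells with and without Cas9, and it may cross a library batch, which the labels do not give. These possibilities cannot be told apart.

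Replication starts at origins bound by the origin recognition complex. In G1 the complex, with CDC6 and CDT1, loads the MCM2-7 ring onto DNA, and in S phase CDC45 and the GINS tetramer turn that ring into the active helicase. Polymerase alpha with primase lays down primers, polymerase epsilon extends the leading strand and polymerase delta the lagging strand, both tied to DNA by PCNA, which RFC loads. RPA covers the unwound single strands, FEN1 and LIG1 finish Okazaki fragments, and ribonucleotide reductase (RRM1, RRM2) and thymidylate synthase (TYMS) supply nucleotides. Many of these genes are transcribed under E2F factors, which the RB proteins restrain, and large T antigen binds RB proteins.

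The values used were normalized reads, the reads of a gene in a library divided by the library's size factor. The tables give only group means, and the reads of single libraries were recovered from the digits of those means (libraries A1 to A3 and B1 to B3 of each sgRNA, in order of size factor and without replicate number). A single solution was found for 99.2% to 99.9% of genes above 0 in the 4 groups, and for all members except MCM4 in Luciferase B, which leaves 44 members in comparisons that use that group. Library totals were 5883005 to 8292197 reads in 6T A, 6T B and Luciferase A, and 19385710 to 38161790 in Luciferase B. The embryonic kidney and neuronal markers of the line were present (NEFL at 1915 to 2164 in the 4 group means), and PTPRC, CD3E, LYZ, PECAM1, VWF, CDH5, ALB and DCN stayed under 10 in all 4 means, while COL1A1, COL3A1 and LUM did not. Nothing in the labels says that replicates came from separate cultures, and the p-values then measure only the spread between these libraries. In bulk RNA, fewer cells in S phase and less RNA per cell cannot be told apart.

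The spread of the members between libraries followed the base composition of their transcripts. The sequences shown first are therefore 90-base stretches of coding sequence, each with a GC content near that of its whole coding sequence, with G and C in capitals, from the principal transcript of GENCODE release 29 (GRCh38). ORC4 (chr2:147930397-148021604, minus strand), an origin recognition subunit, had the lowest GC content over annotated transcripts of all members, 37.6%. POLD1 (chr19:50384204-50418016, plus strand), the catalytic subunit of polymerase delta, and CDT1 (chr16:88803213-88809258, plus strand) had the highest, 64.8% and 65.2%. MCM6 (chr2:135839626-135876426, minus strand), at 43.1%, and MCM2 (chr3:127598223-127622436, plus strand), at 58.1%, are the extremes within the MCM2-7 ring, whose 6 proteins act as 1 complex.
ORC4: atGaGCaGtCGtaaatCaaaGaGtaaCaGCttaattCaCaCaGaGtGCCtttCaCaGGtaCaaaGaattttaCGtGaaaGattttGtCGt
MCM6: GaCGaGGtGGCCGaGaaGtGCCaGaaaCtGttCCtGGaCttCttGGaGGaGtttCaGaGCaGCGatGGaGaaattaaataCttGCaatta
MCM2: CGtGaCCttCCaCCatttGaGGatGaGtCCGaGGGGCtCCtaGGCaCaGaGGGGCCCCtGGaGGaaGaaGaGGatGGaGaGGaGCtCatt
POLD1: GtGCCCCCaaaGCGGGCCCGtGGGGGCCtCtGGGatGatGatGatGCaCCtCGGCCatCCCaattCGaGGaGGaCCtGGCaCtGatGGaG
CDT1: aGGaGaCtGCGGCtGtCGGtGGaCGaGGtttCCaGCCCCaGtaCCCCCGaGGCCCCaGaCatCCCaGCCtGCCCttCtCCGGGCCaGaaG

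The promoters are shown for the E2F link. RefSeq promoters (GRCh38.p14, 250 bases before to 50 after a gene's start) were given for 39 of the 45 members. The letters TTTGGCGC, TTTCCCGC, TTTGCCGC or TTTCGCGC, on either strand, were found in 19 of these 39 members (48.7%) and in 3.99% of all 27305 genes with a promoter. CCAAT was found in 61.5% of members and 39.7% of genes, and the letters TTTGAA or TTCGAA (the cell cycle homology region) in 5.13% of members and 19.5% of genes. A match is a stretch of letters and does not show binding. The 3 promoters below give the 250 bases before the start, with the E2F letters in capitals. In MCM6 each of the pair of capital runs holds a match on both strands that overlap, 4 matches in all.
MCM6 promoter, chr2:135876444-135876693, minus strand: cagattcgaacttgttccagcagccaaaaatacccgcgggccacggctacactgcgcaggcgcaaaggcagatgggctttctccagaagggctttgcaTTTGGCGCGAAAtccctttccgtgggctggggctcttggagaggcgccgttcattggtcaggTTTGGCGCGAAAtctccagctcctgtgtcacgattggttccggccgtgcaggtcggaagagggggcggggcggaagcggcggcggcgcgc
PCNA promoter, chr20:5126623-5126872, minus strand: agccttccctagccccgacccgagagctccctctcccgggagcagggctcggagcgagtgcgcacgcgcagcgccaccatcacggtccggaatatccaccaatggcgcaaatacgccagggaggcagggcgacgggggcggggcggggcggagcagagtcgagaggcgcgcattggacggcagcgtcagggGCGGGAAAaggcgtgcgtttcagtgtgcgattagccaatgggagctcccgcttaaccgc
CDT1 promoter, chr16:88803539-88803788, plus strand: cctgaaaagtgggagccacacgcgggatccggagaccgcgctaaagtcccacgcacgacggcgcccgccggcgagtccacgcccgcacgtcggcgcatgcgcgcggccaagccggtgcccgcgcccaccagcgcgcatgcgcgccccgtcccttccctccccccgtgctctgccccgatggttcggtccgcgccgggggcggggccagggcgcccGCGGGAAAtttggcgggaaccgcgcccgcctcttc

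Levels between genes were compared as normalized reads per kilobase of the principal transcript, averaged over the 4 deposited means. The MCM2-7 subunits MCM7, at 2133, MCM4, at 1650, and MCM3, at 1566, stood highest of the members, while MCM2 was at 1406, MCM5 at 708 and MCM6 at 661. POLD2, the small subunit of polymerase delta, stood just above MCM2 at 1423, against 424 for the catalytic POLD1 and 159 for the accessory POLD3. RPA2 was at 1208, RPA1 at 610 and RPA3 at 222. RPA is a heterotrimer, but these are RNA values and protein was not measured. The 4 lowest members were PRIM2 at 115, POLE2 at 110, ORC2 at 85.8 and ORC4 at 39.0, and the other origin recognition subunits were at 134 (ORC3), 203 (ORC5), 274 (ORC1) and 455 (ORC6). The transcripts in use were not measured, so these values rest on 1 annotated transcript per gene. Per kilobase of all annotated exons MCM7 was again highest, at 1438, and ORC4 lowest, at 28.5. Ranks between them changed. POLD2, at 639, was then well below MCM2, at 1039, and MCM4, at 990, was below RPA2, at 1048. MCM5, at 341, was below MCM6, at 600.

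Under the 6T sgRNA no member passed the test between conditions A and B. In the values deposited by the authors, 0 of 45 members passed an adjusted p of 0.05, against 0.0416% of 19246 genes tested, and 0 of 45 had an unadjusted p under 0.05, against 0.868% of genes. Of the members 17 were higher (background 42.2%) and 28 lower in B, with log2 fold changes in the authors' deposited table from −0.20 (POLD3) to 0.21 (CDT1) and a median of −0.04, beside −0.03 over 14051 genes with a mean of 10 or more. The fit on recovered libraries, limma with Benjamini-Hochberg adjustment over all genes, likewise called 0 of 45 members (background 0.0214%) and gave 0 at an unadjusted p under 0.05 (background 3.11%). Without library 6T B1 that last count was 3 (background 5.99%) and without 6T A2 it was 2 (background 3.755%). The libraries of A and B did not overlap for 6 members, or 6 of 45 (background 7.94%): MCM2, MCM5 and GINS3 were higher in B, and POLD3, RFC1 and RFC5 lower.

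The smallest p of this fit belonged to POLD3 (chr11:74493851-74669117), which holds polymerase delta on PCNA. Its normalized reads were 715, 644 and 709 in 6T A and 619, 593 and 584 in 6T B. All 3 B libraries lay below all 3 A libraries, and the log2 difference was −0.20 ± 0.10 (SE). RFC5, a clamp loader subunit, had 1231, 1219 and 1309 in A and 1171, 1092 and 1117 in B, with a log2 difference of −0.15 ± 0.07 (SE). MCM5 had 2169, 2308 and 2257 in A and 2634, 2441 and 2330 in B, with a log2 difference of 0.14 ± 0.08 (SE). CDT1, with the largest positive log2 fold change in the authors' deposited table, had 2720, 2380 and 2617 in A and 2431, 3337 and 3142 in B, so that its groups overlapped. The standard errors of the log2 differences ran from 0.07 to 0.41 over the members, with a median of 0.10. On simulated counts of the same depth this fit called 76 of 100 genes changed 2-fold and 39 of 100 changed 1.5-fold. The changed genes were drawn from all genes with a mean of 10 or more, so these rates are not those of the members. The rate for the members was not measured, and small changes of single members could be missed.

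Under the luciferase sgRNA again no member was called, but the members spread further, as did all genes. The median absolute log2 fold change deposited by the authors was 0.13 over the members, beside 0.07 under the 6T sgRNA. Over all genes with a mean of 10 or more it was 0.16, beside 0.10. The authors' deposited table called 0 of 45 (background 0% of 20194 genes), with 0 at an unadjusted p under 0.05 (background 1.22%) and a smallest p of 0.0540, for RRM1. Its log2 fold changes ran from −0.23 to 0.69 with a median of 0.04, beside −0.01 over all genes with a mean of 10 or more. ORC2, ORC4, POLE2 and PRIM1 had an absolute log2 fold change of 0.5 or more there, 4 of 45 members against 7.4% of genes. On recovered libraries limma called 0 of 44 members (background 0%), and 7 had an unadjusted p under 0.05 (background 10.8%): MCM6, ORC2, ORC5, RFC4 and RRM1 higher in B, and POLD1 and RFC2 lower. That count of 7 was 1 without Luciferase A1 (background 2.85%), Luciferase B2 (background 3.66%) or Luciferase B3 (background 2.62%). It was 13 without Luciferase A2 (background 17.93%). Members higher in B numbered 26 of 44 (background 50.3%), and 19 of 44 when libraries were centred on their median gene. That centring also moved the median log2 difference of all genes, from 0.0018 to −0.09. The libraries of A and B did not overlap for 6 of 44 members (background 15.9%), with MCM6, CDC6 and POLD3 higher in B and POLE, RFC2 and TYMS lower.

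RFC2, a clamp loader subunit, had the smallest p of this fit. Its normalized reads were 1915, 1930 and 1869 in Luciferase A and 1728, 1640 and 1523 in Luciferase B, a log2 difference of −0.23 ± 0.08 (SE; limma adjusted p = 0.445). POLD1 had 1824, 1563 and 1483 in A and 1491, 1326 and 1343 in B, with 1 B library inside the range of A and a log2 difference of −0.22 ± 0.10 (SE). MCM6 lay in the other direction, with 1834, 2286 and 2328 in A and 2436, 2635 and 2501 in B, a log2 difference of 0.24 ± 0.11 (SE).

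The most members with a small p were found between the sgRNAs within condition A. Here 22 of 45 members had an unadjusted p under 0.05 in limma, against 31.5% of 14034 genes, with 16 lower under the luciferase sgRNA (background 18.7%) and 6 higher (background 12.8%), while 0 of 45 passed an adjusted p of 0.05 (background 0.0926%). The 16 lower were ORC2, ORC3, ORC4, ORC5, MCM6, POLA1, PRIM1, PRIM2, POLD3, RFC1, RFC3, RFC4, PCNA, RPA2, RRM1 and RRM2, and the 6 higher were CDT1, MCM2, MCM5, POLD1, POLE and RFC2. The libraries did not overlap for 19 of 45 members (background 33.1%), with 11 lower (background 16%) and 8 higher (background 17.1%). Of all members 19 of 45 were higher under the luciferase sgRNA (background 48.8%), and the median log2 difference was −0.08 over the members and −0.01 over all genes. The count of 22 was 14 without 6T A2 (background 20.98%) and 14 without Luciferase A1 (background 17.17%). Members called numbered 7 without Luciferase A2, when 1072 genes were called in all (7.64% of those tested). Those called were RFC4, RRM1, ORC5, POLA1, RFC1, MCM2 and ORC2.

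Scaling mattered in this comparison. Centring each library on its median gene moved the median of all genes from −0.01 to 0.10 on the log2 scale and the number of members higher under the luciferase sgRNA from 19 to 25 of 45. With that centring 6 members were called (RRM1, RFC4, RFC2, ORC2, POLE and ORC5, among 952 genes called, 6.78% of those tested). Scaling by total reads called 2 members (RFC4 and RRM1, among 286 genes, 2.04%).

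Within condition B the sgRNAs differed less. limma called 0 of 44 members (background 0%), and only POLE, at a log2 difference of 0.19 ± 0.08 (SE), and RPA2, at −0.17 ± 0.08 (SE), had an unadjusted p under 0.05, or 2 of 44 members against 5.39% of genes. That count was 0 without Luciferase B1 (background 3.373%) or Luciferase B3 (background 3.904%) and 4 without 6T B1 (background 8.87%). Libraries did not overlap for 5 of 44 members (background 12.9%): POLE and RFC5 were higher under the luciferase sgRNA, and GINS2, RFC4 and RPA2 lower.

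A test of whether the B to A difference itself differed between the sgRNAs called 0 of 44 members (limma, background 0%). At an unadjusted p under 0.05 stood 5 of 44 (background 9.41%): RRM1 at 0.50 ± 0.23, ORC5 at 0.55 ± 0.21 and POLD3 at 0.39 ± 0.14 (SE), where B relative to A was higher under the luciferase sgRNA, and CDT1 at −0.41 ± 0.18 and POLD1 at −0.38 ± 0.14 (SE), where it was lower. Members above 0 numbered 29 of 44 (background 54.2%), and 22 of 44 with median centring, which moved the median of all genes from 0.04 to −0.08. The count of 5 was 2 without 6T A2 (background 6.47%) and 9 without Luciferase A2 (background 15.44%), the extremes over the libraries left out in turn.

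**Figure D1:**
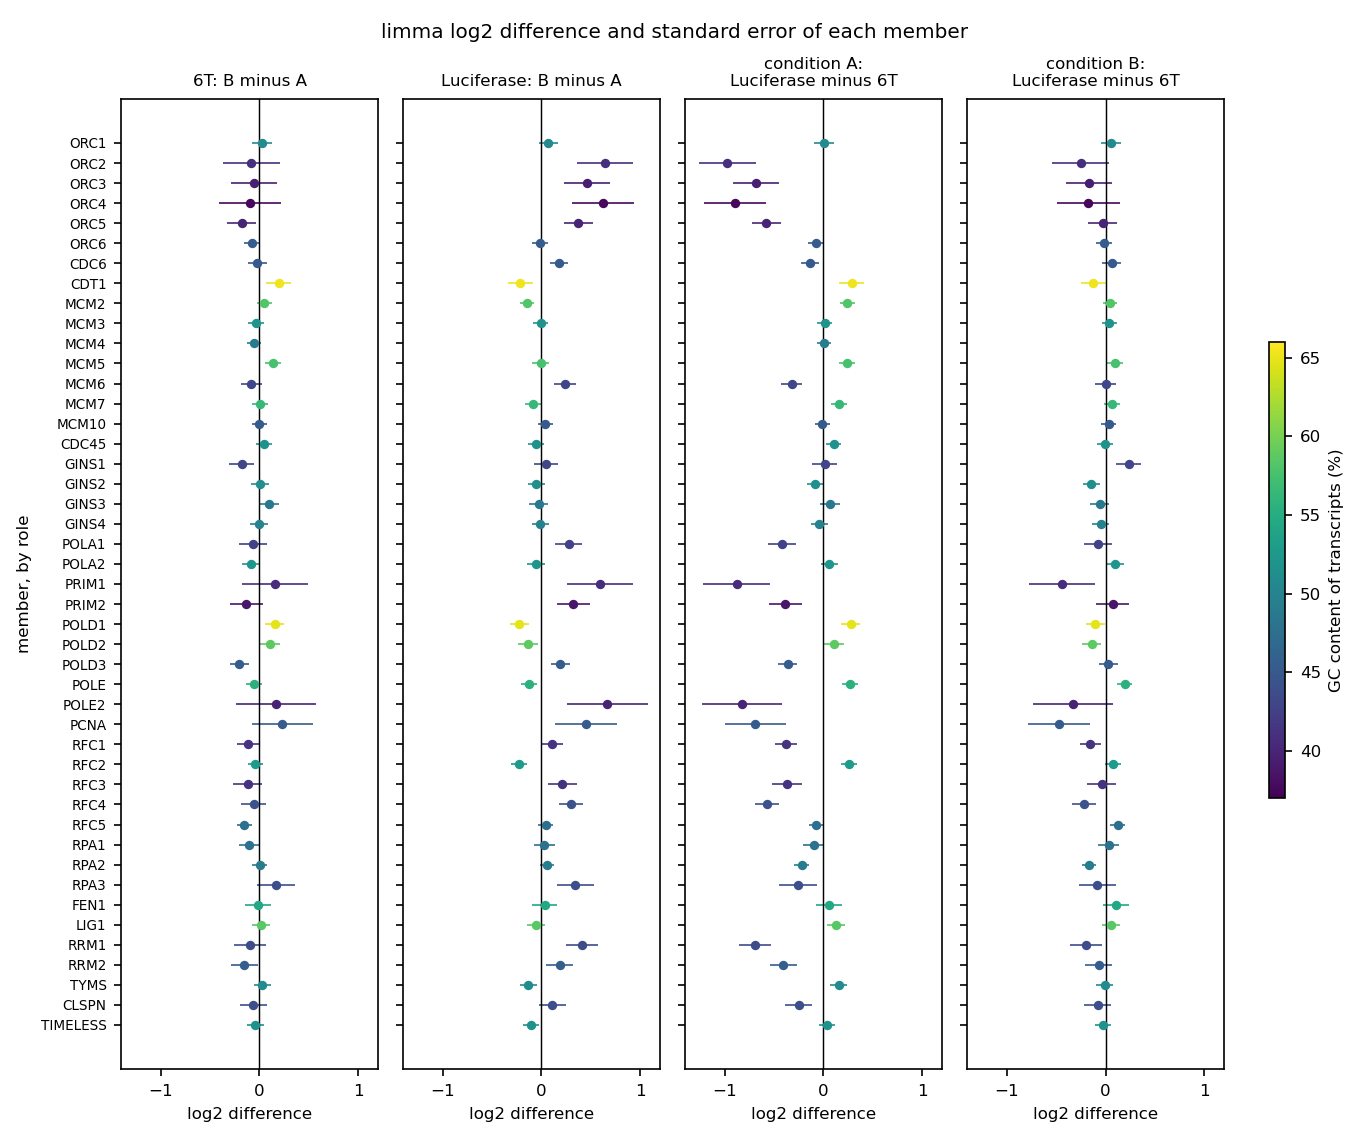
Log2 difference (horizontal axis, limma, normalized reads plus 1) with its standard error (bars) for each of the 45 members (vertical axis, ordered by role) in 4 comparisons, coloured by GC content in percent. Differences under the 6T sgRNA stayed between −0.20 and 0.23, and within condition A they ran from −0.97 (ORC2) to 0.29 (CDT1), with the GC-poor members to the left; MCM4 has no value where Luciferase B is used.

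The origin recognition complex divided by subunit. ORC1, which directs the complex to origins, had 863, 786 and 897 normalized reads in 6T A, 839, 836 and 912 in 6T B, 765, 900 and 895 in Luciferase A and 970, 917 and 802 in Luciferase B. ORC6 spanned only 682 to 791 over the 12 libraries. These 2 subunits overlapped between the groups in every comparison.

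ORC2 to ORC5 were another matter, and ORC2, ORC3 and ORC4 are named for their spread, after their values were seen. ORC4 had 302, 452 and 192 in 6T A, 314, 321 and 211 in 6T B, 132, 189 and 161 in Luciferase A and 159, 258 and 363 in Luciferase B. ORC2 had 425, 651 and 311 in 6T A, 573, 383 and 332 in 6T B, 173, 280 and 233 in Luciferase A and 257, 367 and 455 in Luciferase B. For both genes 6T A2 was the highest library and Luciferase A1 the lowest. Within condition A the log2 difference was −0.97 ± 0.28 (SE; limma adjusted p = 0.0691) for ORC2 and −0.90 ± 0.32 (SE; limma adjusted p = 0.0918) for ORC4.

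ORC5 (chr7:104126341-104208047) was the subunit with the smallest p. Its normalized reads were 423, 548 and 424 in 6T A, 373, 405 and 448 in 6T B, 256, 374 and 307 in Luciferase A and 361, 426 and 415 in Luciferase B. Luciferase A lay below 6T A without overlap, at a log2 difference of −0.58 ± 0.15 (SE; limma adjusted p = 0.0613), and B was above A under the luciferase sgRNA by 0.37 ± 0.15 (SE; limma adjusted p = 0.445). The ratio of ORC4 to ORC1 reads ran from 0.164 in Luciferase B1 to 0.575 in 6T A2. Both proteins belong to 1 complex, but their amounts were not measured.

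Of the licensing factors, CDC6 kept to 1242 to 1702 normalized reads over the 12 libraries. CDT1, the partner that geminin restrains after G1, had 3767, 2915 and 2804 in Luciferase A and 2848, 2703 and 2556 in Luciferase B, beside the 6T values above. Luciferase A lay above 6T A by 0.29 ± 0.13 (SE; limma adjusted p = 0.145), without overlap, and Luciferase A1 was the highest of all libraries. CDT1 thus had its extremes in the same 2 libraries as ORC2 and ORC4, in the opposite order.

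In the MCM2-7 ring, MCM3, MCM4 and MCM7 varied least between libraries. MCM3 ran from 4607 to 5437, MCM7 from 5621 to 6992, and MCM4 from 6155 to 7118 over the 9 libraries recovered for it. The 4 deposited means of MCM4 were 6980 and 6731 (6T A and B) and 6995 and 6906 (Luciferase A and B). Their log2 differences lay between −0.09 and 0.15 in every comparison available to them.

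MCM6 and MCM2 differed in direction. MCM6 had 2494, 2882 and 2641 in 6T A, 2862, 2282 and 2455 in 6T B and 1834, 2286 and 2328 in Luciferase A. MCM2 had 4790, 4700 and 4750 in 6T A, 4862, 5030 and 4847 in 6T B, 6157, 5164 and 5575 in Luciferase A and 5296, 5123 and 4813 in Luciferase B. Within condition A, MCM6 was lower under the luciferase sgRNA, at a log2 difference of −0.32 ± 0.11 (SE; limma adjusted p = 0.0850) and MCM2 higher, at 0.24 ± 0.07 (SE; limma adjusted p = 0.0722), each without overlap of the libraries. Their ratio, MCM2 over MCM6, ran from 1.63 in 6T A2 to 3.36 in Luciferase A1, a 2.06-fold range of RNA reads. MCM3 over MCM5 had a 1.31-fold range. The subunits are equimolar in the ring, but protein was not measured. MCM5 sided with MCM2 in condition A, at 2731, 2518 and 2696 in Luciferase A and a log2 difference of 0.24 ± 0.08 (SE; limma adjusted p = 0.0901).

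Helicase activators had no member with a small p. None of MCM10, CDC45 and GINS1 to GINS4 had an unadjusted p under 0.05 in any of the 5 comparisons, and their log2 differences within condition A lay between −0.08 and 0.10. MCM10 ran from 1214 to 1427 normalized reads over the 12 libraries. GINS1, with the smallest p of the role, had 887, 647 and 745 in 6T B and 911, 935 and 820 in Luciferase B, which overlap, with a log2 difference of 0.24 ± 0.13 (SE). GINS1 has a low GC content, 43.0%, yet within condition A its log2 difference was 0.01 ± 0.13 (SE), or 0.31 (limma adjusted p = 0.205) after the GC correction described with the GC trends.

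Polymerase alpha and primase split as the origin complex did. The catalytic POLA1 had 1015, 1076 and 969 in 6T A, 1016, 933 and 971 in 6T B, 573, 933 and 833 in Luciferase A and 856, 956 and 963 in Luciferase B. Luciferase A lay below 6T A, at a log2 difference of −0.42 ± 0.14 (SE; limma adjusted p = 0.0878), which was −0.21 without Luciferase A1. The partner subunit POLA2 ran only from 1496 to 1877. PRIM1, which makes the primer and is named here for its spread, had 463, 632 and 230 in 6T A, 478, 496 and 394 in 6T B, 144, 309 and 241 in Luciferase A and 243, 388 and 394 in Luciferase B. Its libraries overlapped within condition A, since 6T A3 was as low as the luciferase libraries.

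Among polymerases delta and epsilon, POLE and POLD1, the catalytic subunits, were higher in Luciferase A than in 6T A. POLE had 2857, 2761 and 3275 in 6T A, 2909, 2691 and 2957 in 6T B, 3721, 3441 and 3522 in Luciferase A and 3374, 3148 and 3260 in Luciferase B. It was the 1 member whose luciferase libraries lay above the 6T libraries without overlap in both conditions, by 0.27 ± 0.08 in A (SE; limma adjusted p = 0.0697) and 0.19 ± 0.08 in B (SE; limma adjusted p = 0.901). POLD1 had 1277, 1335 and 1401 in 6T A and 1453, 1385 and 1636 in 6T B, and Luciferase A was above 6T A by 0.27 ± 0.10 (SE; limma adjusted p = 0.0922).

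The accessory subunits POLD3 and POLE2 were lower there. POLD3 had 473, 549 and 590 in Luciferase A and 627, 596 and 610 in Luciferase B, and Luciferase A was under 6T A, at a log2 difference of −0.36 ± 0.10 (SE; limma adjusted p = 0.0629). POLE2, the small subunit of polymerase epsilon, had the widest range of all members: 214, 373 and 108 in 6T A, 284, 209 and 207 in 6T B, 67.7, 173 and 130 in Luciferase A and 126, 200 and 243 in Luciferase B. The highest library was 5.51 times the lowest, which held 41 reads (exact 95% Poisson interval 29.4 to 55.6, counting error only). With that spread its difference within condition A, −0.83 ± 0.41 (SE), had a limma adjusted p of 0.179. POLE2 over POLE reads ran from 0.0182 to 0.135, a 7.42-fold range of RNA for subunits of 1 polymerase.

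PCNA (chr20:5114953-5126626), the sliding clamp and a common marker of proliferating cells, also varied widely. It had 1543, 2499 and 843 in 6T A, 2125, 1762 and 1408 in 6T B, 765, 1061 and 952 in Luciferase A and 909, 1400 and 1549 in Luciferase B. The first 3 libraries alone differed by nearly the whole range of the study, 3.27-fold. The difference between sgRNAs within condition A was −0.69 ± 0.31 (SE; limma adjusted p = 0.148), and 3 PCNA pseudogenes are annotated, between which reads could be divided.

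The clamp loader was divided in the same sense. RFC4 had 643, 703 and 680 in 6T A, 652, 609 and 684 in 6T B, 382, 568 and 430 in Luciferase A and 550, 549 and 573 in Luciferase B, and it had the smallest adjusted p of any member, 0.0538 by limma, for −0.57 ± 0.12 (SE) within condition A. RFC2 was higher in the same comparison, going from 1548, 1656 and 1566 in 6T A to the Luciferase A values above, by 0.26 ± 0.08 (SE; limma adjusted p = 0.0715). The ratio RFC4 over RFC2 therefore ran from 0.199 in Luciferase A1 to 0.456 in 6T B1. RFC4 overlaps EIF4A2 on the opposite strand, and whether the authors counted by strand is not known, so its reads are uncertain. An opposite-strand overlap is annotated for 17 members in all.

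RPA2 was lower under the luciferase sgRNA in both conditions. It had 2252, 2350 and 2158 in 6T A, 2237, 2192 and 2347 in 6T B, 1839, 2038 and 1933 in Luciferase A and 1950, 2149 and 1941 in Luciferase B, with no overlap between the sgRNAs. The log2 difference was −0.22 ± 0.08 (SE; limma adjusted p = 0.0882) in A and −0.17 ± 0.08 (SE; limma adjusted p = 0.907) in B. Its GC content is 49.0% and 3 RPA2 pseudogenes are annotated. RPA1 ran from 2265 to 2993 and RPA3 from 276 to 580, each with overlapping groups in every comparison.

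FEN1, which removes flaps, ran from 1403 to 1993 normalized reads and LIG1, which seals the nick, from 948 to 1219. Neither had an unadjusted p under 0.05 in any comparison, and the limits of the log2 differences were −0.07 and 0.13. No unadjusted p under 0.05 was found for the fork protection genes either, with TIMELESS from 2151 to 2544 and CLSPN, the mediator of checkpoint kinase activation, from 545 to 899.

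Nucleotide supply held RRM1, an abundant member with a wide difference within condition A. RRM1 (chr11:4094707-4138876), the large subunit of ribonucleotide reductase, had 3413, 3629 and 3105 in 6T A, 3302, 3241 and 2975 in 6T B, 1477, 2584 and 2374 in Luciferase A and 2514, 3049 and 2749 in Luciferase B. Luciferase A lay below 6T A without overlap, at a log2 difference of −0.69 ± 0.16 (SE; limma adjusted p = 0.0576), which was −0.45 without Luciferase A1 and −0.64 without 6T A2. B was above A under the luciferase sgRNA by 0.41 ± 0.16 (SE; limma adjusted p = 0.445), or 0.16 without Luciferase A1. RRM2, the small subunit that is made in S phase, had 1864, 2496 and 2011 in 6T A and 1340, 1713 and 1746 in Luciferase A, a log2 difference of −0.41 ± 0.14 (SE; limma adjusted p = 0.0850). TYMS ran from 784 to 993 and had no unadjusted p under 0.05 in any comparison.

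**Figure D2:**
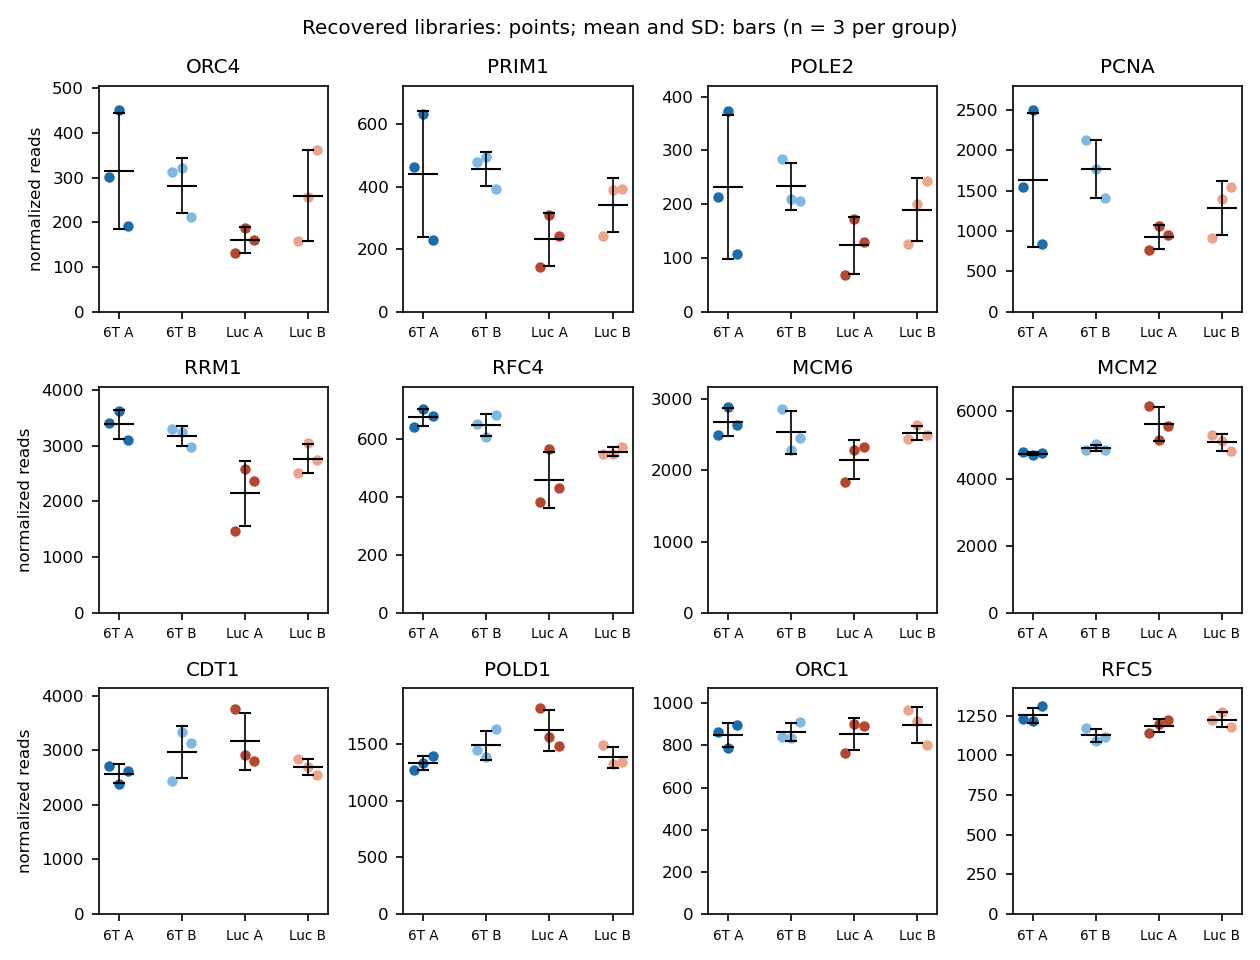
Normalized reads (vertical axis, from 0) of 12 members in the 3 libraries of each group (points), with the mean and SD (bars, n = 3). ORC4, PRIM1, POLE2 and PCNA spread widely within 6T A, RRM1, RFC4 and MCM6 sit lowest in Luciferase A, MCM2, CDT1 and POLD1 highest there, and the groups of ORC1 overlap.

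The members were therefore not uniform. Over the 44 members with 12 libraries the highest library was 1.16 (ORC6) to 5.51 (POLE2) times the lowest, with a median of 1.40, and the ratio was over 2 for 9 members and under 1.5 for 24. It was larger for GC-poor members, with a median of 2.04 over the 16 members with a GC content under 45%, 1.28 over 11 from 45% to 50% and 1.31 over 17 at 50% or more. Luciferase A1 was the lowest library for 15 of the 16 GC-poor members, and 6T A2 the highest for 14 of them. The median log2 deviation of these 16 from their mean over libraries was −0.66 in Luciferase A1 and 0.31 in 6T A2, beside 0.15 and −0.05 for the 17 GC-rich members.

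**Figure D3:**
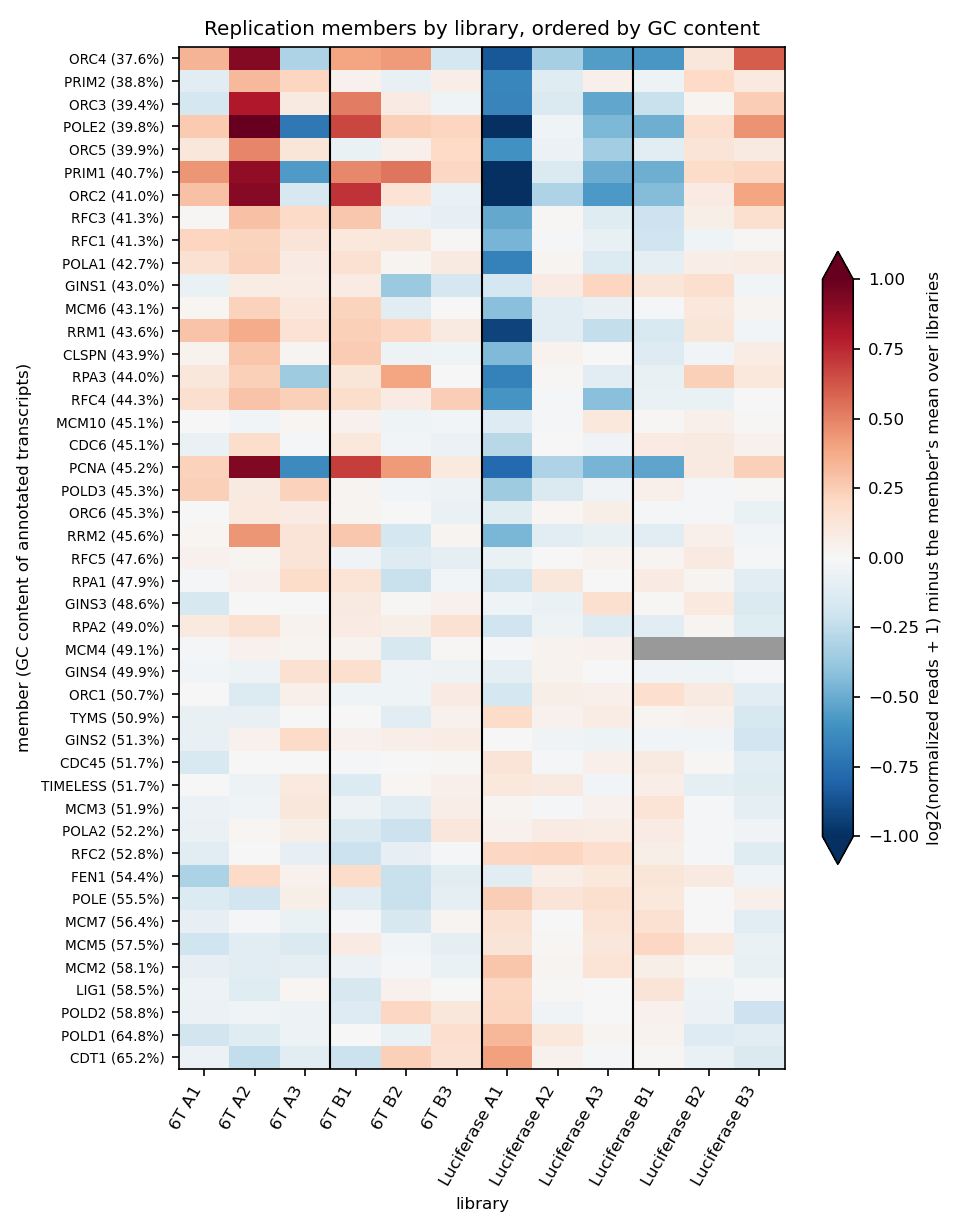
Log2 normalized reads of each member (vertical axis, ordered by GC content from 37.6% at the top to 65.2%) minus its mean, in each library (horizontal axis), on a colour scale from −1 to 1. GC-poor members are high in 6T A2 and low in Luciferase A1, and grey marks MCM4 in Luciferase B, which was not recovered.

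Within condition A, 15 of the 16 GC-poor members were lower under the luciferase sgRNA, with a median log2 difference of −0.49, and 16 of the 17 GC-rich ones were higher, with a median of 0.13. All genes tested behaved alike, with a median of −0.39 over 4307 GC-poor and 0.17 over 6460 GC-rich genes. Spearman's rho between GC content and log2 difference was 0.89 over the 45 members and 0.74 over 13290 genes. Members and genes share the libraries and so are not independent points.

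The comparison of B with A under the luciferase sgRNA uses the same Luciferase A libraries. There all 16 GC-poor members were higher in B (median 0.33, beside 0.27 for all GC-poor genes) and 15 of 17 GC-rich ones lower (median −0.08, beside −0.11). Spearman's rho was −0.89 over 44 members and −0.71 over genes. Under the 6T sgRNA rho was 0.48 over 45 members and 0.37 over genes, with 13 of 16 GC-poor members lower in B, with a median log2 difference of −0.08 over the 16, and within condition B it was 0.41 over 44 members and 0.10 over genes.

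**Figure D4:**
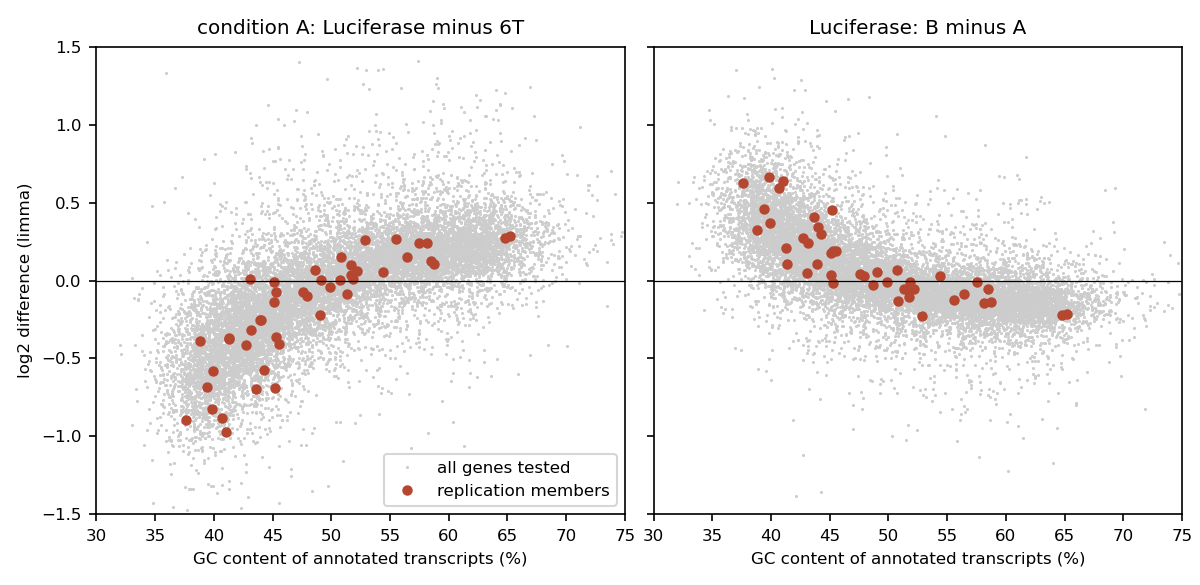
Log2 difference (vertical axis, limma) against the GC content of annotated transcripts in percent (horizontal axis) for all genes tested (grey; the few beyond the axes are not drawn) and the members (red). In condition A the members rise with GC content (left) and under the luciferase sgRNA, B minus A, they fall (right), within the cloud of all genes.

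Most differences were smaller when each library's trend with GC content over all genes was taken out. The median absolute log2 difference of the members within condition A went from 0.24 to 0.09, and from 0.13 to 0.07 for B against A under the luciferase sgRNA. In condition A the corrected values were −0.03 for MCM6, 0.05 for MCM2, 0.00 for RFC1, −0.10 for POLA1 and −0.14 for ORC5. RRM1 kept −0.43, RFC4 −0.34, ORC2 −0.58, PCNA −0.50, PRIM1 −0.47, POLE2 −0.38 and ORC4 −0.37 there. GINS1 went the other way, from 0.01 to 0.31, the highest corrected value of the members, and MCM10 from −0.01 to 0.19. After the correction none of the 45 members was called within condition A (background 0.0978%, smallest limma adjusted p = 0.0937, for RRM1). Members at an unadjusted p under 0.05 in limma numbered 10 of 45 there (background 16.1%), beside 22 before. For B against A under the luciferase sgRNA they numbered 3 of 44 (background 5.22%), beside 7. Within condition B the count rose, to 5 of 44 (background 9.40%), beside 2. The part of GC content, depth, sgRNA, Cas9 and library batch in these differences was not tested.

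The likeness of members over the 12 libraries, as Pearson's r of log2 normalized reads, divided them as described. POLE2 was most like PRIM1 (0.97), PCNA (0.95) and ORC2 (0.94), and ORC4 most like ORC2 (0.95). RRM1 was most like POLA1 (0.97) and RFC1 (0.95), and MCM6 most like RRM2 (0.96) and RFC3 (0.91) rather than another MCM2-7 subunit. MCM2 was most like TYMS (0.78) and least like RFC4 (−0.96), and CDT1 was most like POLD2 (0.88). These are descriptions over 12 libraries that share the group differences and GC trends above.

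The members were also set apart by their promoter letters, and the difference between these groups was not tested. Within condition A, 10 of the 19 members with E2F letters and 7 of the 20 without were higher under the luciferase sgRNA, with medians of 0.01 and −0.09 and median GC contents of 48.7% and 45.4%. For B against A under the luciferase sgRNA 9 of 19 and 14 of 20 were higher in B, with medians of −0.0090 and 0.06. The promoters printed above belong to members that differed in direction within condition A, where MCM6 and PCNA were below 0 and CDT1 above 0. For B against A under the luciferase sgRNA MCM6 (0.24) and PCNA (0.45) were above 0 and CDT1 (−0.22) below.

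A second list held 46 other replication genes that are no members, such as geminin, TOPBP1, the cyclins E and further helicase, checkpoint and nucleotide genes. limma called 0 of these 46 in each of the 5 comparisons. Within condition A, 21 of 46 had an unadjusted p under 0.05 (background 31.5%), 15 lower (background 18.7%) and 6 higher (background 12.8%), with a median of −0.22, and the smallest p belonged to TOPBP1, which helps to activate the helicase, at −0.44 ± 0.12 (SE; limma adjusted p = 0.0639). WDHD1, which ties polymerase alpha to the helicase, was at −1.01 ± 0.28 (SE; limma adjusted p = 0.0652). Their GC contents are 41.6% and 39.3%. Under the luciferase sgRNA 5 of 46 had an unadjusted p under 0.05 for B against A (background 10.8%), all higher, led by DNA2, a nuclease of Okazaki fragments, at 0.70 ± 0.29 (SE; limma adjusted p = 0.445). Under the 6T sgRNA it was 1 of 46 (background 3.11%), E2F1, at 0.27 ± 0.13 (SE), and within condition B 1 of 46 (background 5.39%), TICRR, which brings CDC45 to the helicase, at 0.24 ± 0.11 (SE; limma adjusted p = 0.901).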

How the data were processed

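PolyA RNA of 12 libraries was sequenced, and the authors' notes name STAR, HTSeq, DESeq and the build hg38, per the submitters' processing notes; versions, annotation and strand use are not given in the sources used here. The authors deposited a table for each sgRNA. As deposited, its signal values are mean counts of reads after division by size factors, over all libraries of an sgRNA and over those of each condition. The authors' ratio of B to A and its log2 stand beside them. A p-value and an adjusted p-value from DESeq close each line, per the file headers. The 5 entries that name no gene held 38.67% (6T) and 41.7% (Luciferase) of mean normalized reads and were left out.

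Each mean is a sum of 3 whole read numbers over size factors. The size factors and reads were found by search and checked on simulated means, where every single solution was the true one (2905 of 2905 in 6T A). For means of 100 or more the search covered 0.4 to 1.8 times the mean. It covered 0.7 to 1.35 times where the wider range would let chance solutions in. The simulated libraries varied less than those of widely spread members such as POLE2, so the check covers such genes less well. Both tables share 1 normalization: median-of-ratios factors computed here from all 12 libraries lay within 0.0861% of the recovered ones, and those computed within a table were up to 36.7% away. A trended limma model (limma 3.58.1, R 4.3.3) was fitted to log2(normalized reads + 1) of the 12 libraries in 4 groups, for genes with a mean of 10 or more, with Benjamini-Hochberg adjustment over all genes at 0.05. On simulated counts it called 76 and 71 of 100 genes changed 2-fold (6T, Luciferase), with 8 and 5 false calls among 13914 genes. The simulated counts held no trend with GC content between libraries. Fold changes of low genes are understated on this scale. The count of reads in each library set the precision, and the 95% interval given covers counting error only.

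GC content is the share of G and C over all annotated transcripts of a gene (GENCODE 29, hg38); the correction removed a loess trend (span 0.5) from each library. Of 26485 genes, 23900 matched by symbol and 25 by another symbol. RPA3, GINS4, MCM5, MCM4, RPA2 and POLD3 had no promoter in the RefSeq table. Alternatives were pseudocounts of 0.5 and 5, no filter, a mean of 50 or more, 2 other scalings, a fit of the 2 groups alone, the GC correction and leaving out each library. Members named were the 3 with the smallest p in each comparison and the first of each role; the others, and the genes shown with their spread, were chosen after their values were seen. The members and lists were chosen with earlier results of these data known. A gene of the marker list is not reported here.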

Additional observations from a re-analysis of the deposited data

How the results depend on the processing

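Over the alternatives run, 148 of 156 recomputed summary values (members called, and median differences) kept their side of the threshold or stayed within the spread. The exceptions follow. Within condition A, the number of members called was 2 with scaling by total reads (background 2.04%) and 6 with median centring (background 6.78%). It was 0 to 7 when 1 library was left out, with 7 where the background was 7.64%. The median log2 difference of the members within condition A was 0.040 with median centring, beside −0.08. For B against A under the luciferase sgRNA it was −0.042 with median centring, beside 0.05. For the difference between the sgRNAs it was −0.020 with median centring, beside 0.09, and ranged from 0.021 to 0.16 when 1 library was left out. Other medians changed sign but stayed within the spread (SD 0.063 between libraries of a group). For B against A under the luciferase sgRNA the median was −0.0050 without Luciferase A1. Within condition B it was 0.0030 without 6T B1 and 0.0028 without Luciferase B3, beside −0.03. The cause was not tested. The pseudocounts, the filters, the fit of the 2 groups alone and the adjustment of the authors' p over fewer genes called no member in any comparison in which they were run. No paired analysis was possible because the deposited columns are group means and the recovered libraries carry no replicate number. Luciferase B was sequenced more deeply than the other groups, and for POLE2 and ORC4 the reads in the shallow libraries limit the precision.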
